A study of Mus musculus with 4 samples.

Results

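The genes described here make up the synthesis of cholesterol and of fatty acids, together with the proteins that switch both pathways on and off. They are 36 named genes, from the regulators Srebf1, Srebf2, Scap, Insig1 and Insig2 to the enzymes of the sterol branch and of fatty acid synthesis, desaturation, elongation and activation. They were taken by gene symbol, and 36 of 36 had a row among the 20377 genes of the deposited table. All values come from 4 libraries of 1 group, rGBC2, so no comparison between conditions was possible. The cells were primary gallbladder cells of mice aged 8 weeks, on a C57BL/6 background. The mice carried the MIP-GFP transgene, B6.Cg-Tg(Ins1-EGFP)1Hara/J, in which an Ins1 promoter drives green fluorescent protein, and the cells had been expanded in medium with fetal bovine serum and insulin. All of them had received Pdx1, Ngn3, Mafa and PAX6 and unnamed compounds over 10 days and had then been sorted for the fluorescent reporter. Cells without the reporter are not represented. The labels do not say whether the 4 libraries came from separate animals or cultures, and p-values measure only the spread between these libraries, which may be technical.

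Cells make cholesterol from acetyl-CoA through mevalonate, farnesyl diphosphate, squalene and lanosterol. The same acetyl-CoA is the building block of palmitate, which is then lengthened and desaturated. Both pathways are controlled by the sterol regulatory element-binding proteins encoded by Srebf1 and Srebf2. Scap carries these proteins out of the endoplasmic reticulum when sterols are scarce, and the Insig proteins hold Scap back when sterols are plentiful. Srebf2 is known mainly for genes of cholesterol synthesis and Srebf1 for genes of fatty acid synthesis.

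Expression is given as RPKM, reads scaled to transcript length and to library depth. Levels of different genes can so be set side by side within a library. The scaling does not correct for sequence shared with other genes or for GC content. Comparisons between genes are therefore approximate. The depth estimated from the smallest values in the table was 24200000, 22200000, 24600000 and 32900000 reads for replicates 1 to 4. A level was called above or below 1 RPKM by limma's moderated test on log2(RPKM + 1), two-sided. Its p-values were adjusted by Benjamini-Hochberg for the 16919 genes listed above 0 in some library, and the threshold was 0.05. The libraries fell into a pair with reads of Y-linked genes and a pair without. Eif2s3y stood at 48.47 and 44.73 RPKM in replicates 1 and 2 but was listed at 0 in the other two libraries, and Ddx3y showed the same division. Replicates 3 and 4 were the most alike of all pairs (Spearman 0.995 across genes, which are not independent replicates), and the median chi-square statistic of a gene between them was 5.38 times the value for sampling noise alone, against 41.6 to 106.2 times for the other pairs. They were counted as 2 libraries, as labelled, but these values do not show that they are separate biological samples. Without replicate 3, and likewise without replicate 4, 33 members lay above 1 RPKM and 2 below, as with all 4. Markers of the labelled cells were present, with the keratins Krt7 and Krt8 at 635 ± 186 and 313 ± 60.4 RPKM (SD, n = 4). The islet hormone genes Iapp and Ins2 were at 4169 ± 1423 and 3221 ± 1438 RPKM, and Slc2a2, a glucose transporter, was the lowest of the insulin-cell markers at 119.97 ± 29.0 RPKM. Sox9, a biliary transcription factor, was at 0.843 ± 0.276 RPKM and was called neither above nor below 1 RPKM.

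Nearly every step of both pathways was represented above 1 RPKM, the exceptions being Hmgcs1, Idi1 and Acacb. Of the 35 members tested, 33 lay above 1 RPKM and 2 below, against 65.0% of all tested genes above and 26.1% below, and Hmgcs1 was listed at 0. With 10 RPKM as the reference level, 23 members lay above it and 6 below, against 35.9% and 48.2% of all tested genes. The median of the members' mean levels was 21.95 RPKM over all 36, with Hmgcs1 counted at 0. The median was 7.38 RPKM over all genes tested and 15.2 RPKM over genes with a mean of at least 1 RPKM. Together the members took 0.206% to 0.234% of the summed RPKM of a library. Insig1, Fads1 and Scd2 were the most abundant. Fads1 overlapped both others over the 4 libraries, while Insig1 in its lowest library (133.42 RPKM) lay just above Scd2 in its highest (131.27 RPKM). With members ordered by mean, only 2 of 34 neighbours had separate ranges, Scd2 above Elovl1 and Acaca above Acacb.

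**Figure D1:**
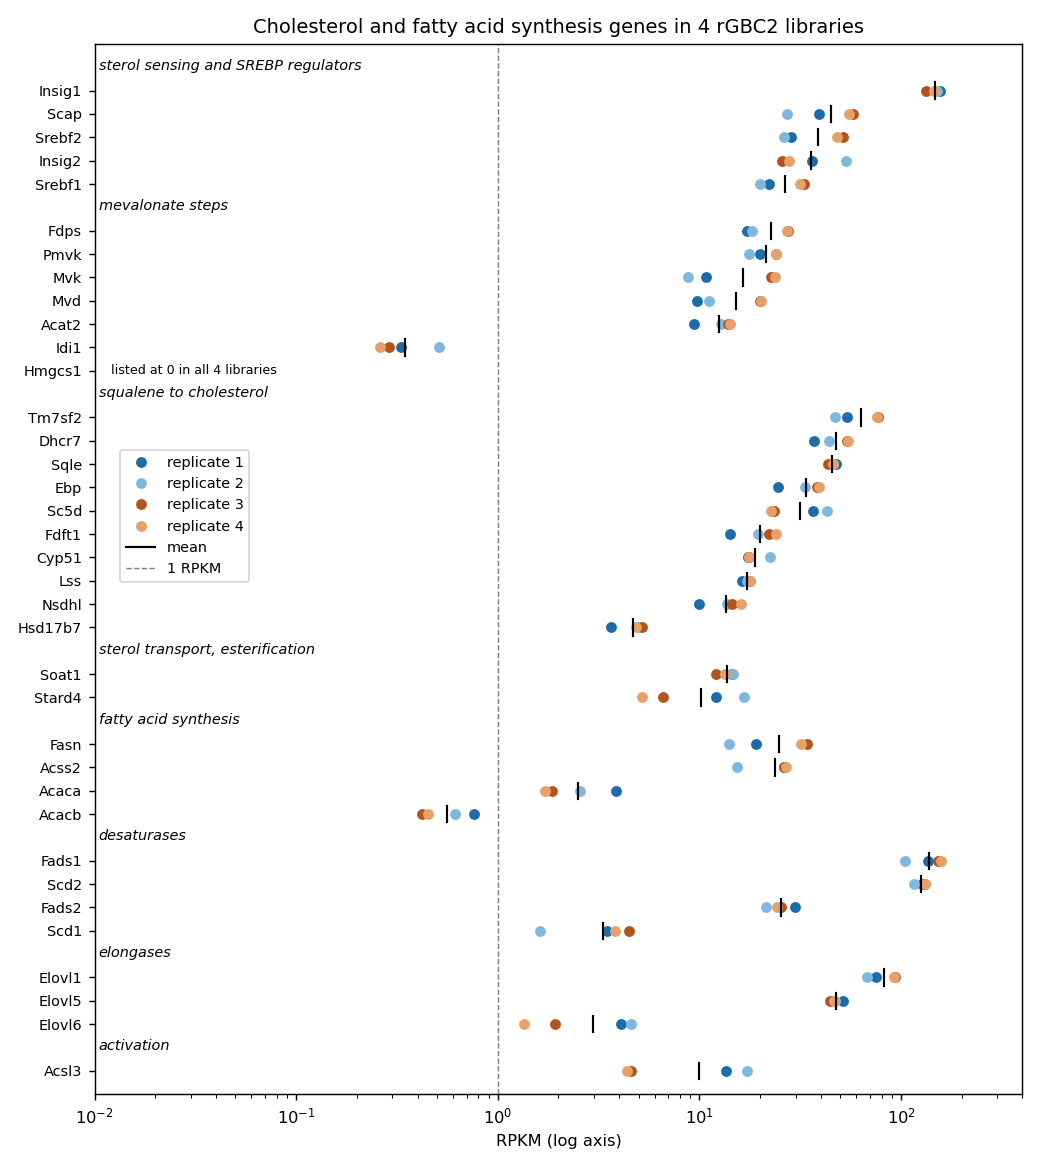
RPKM on a log axis for each member in each of the 4 libraries (coloured points) with the mean (black bar), grouped by role, and the 1 RPKM reference as a dashed line. Insig1, Fads1 and Scd2 lie farthest right, at 104.88 RPKM or more in every library, Acacb and Idi1 lie left of the dashed line, and Hmgcs1 is listed at 0.

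Promoter sequences were examined because both arms share regulators that bind near gene starts. Windows from 250 bases before to 50 bases after the RefSeq start (assembly GRCm38.p6) were at hand for 29 of 36 members, matched by symbol, in 38 windows. Sqle, Fads1, Scd2, Fdps, Scd1, Stard4 and Fdft1 had none. Searched on both strands were the sterol regulatory element core TCACNCCAC, the E-box CACGTG, the CCAAT box CCAAT and the GC box GGGCGG. Shown are 4 windows, with every match in capitals: Insig1 is the most abundant member, Mvk differed most in the upward direction between the library pairs, Hmgcs1 alone held the sterol element core, and Fasn is the fatty acid synthase itself. Insig1 lies at chr5:28071162-28071461 (+), Hmgcs1 at chr13:119690101-119690400 (+), Mvk at chr5:114444019-114444318 (+) and Fasn at chr11:120824498-120824797 (-), and each sequence reads in the direction of transcription.
Insig1: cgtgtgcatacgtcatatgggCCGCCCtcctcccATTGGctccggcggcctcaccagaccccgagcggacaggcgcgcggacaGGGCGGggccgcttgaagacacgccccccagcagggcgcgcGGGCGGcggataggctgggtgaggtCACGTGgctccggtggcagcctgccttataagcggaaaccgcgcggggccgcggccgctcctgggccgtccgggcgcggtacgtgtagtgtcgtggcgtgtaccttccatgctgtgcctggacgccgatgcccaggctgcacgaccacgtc
Hmgcs1: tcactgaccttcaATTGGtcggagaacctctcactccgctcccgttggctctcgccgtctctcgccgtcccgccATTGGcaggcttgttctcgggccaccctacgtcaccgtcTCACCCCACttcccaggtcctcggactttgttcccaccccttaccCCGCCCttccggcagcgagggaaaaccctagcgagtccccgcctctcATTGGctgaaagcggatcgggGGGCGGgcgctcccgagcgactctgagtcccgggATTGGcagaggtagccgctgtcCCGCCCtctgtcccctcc
Mvk: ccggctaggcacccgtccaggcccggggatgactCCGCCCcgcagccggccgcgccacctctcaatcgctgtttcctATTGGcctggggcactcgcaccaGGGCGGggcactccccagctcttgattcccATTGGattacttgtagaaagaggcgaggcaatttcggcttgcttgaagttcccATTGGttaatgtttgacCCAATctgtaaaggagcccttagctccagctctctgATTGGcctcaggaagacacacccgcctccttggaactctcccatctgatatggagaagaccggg
Fasn: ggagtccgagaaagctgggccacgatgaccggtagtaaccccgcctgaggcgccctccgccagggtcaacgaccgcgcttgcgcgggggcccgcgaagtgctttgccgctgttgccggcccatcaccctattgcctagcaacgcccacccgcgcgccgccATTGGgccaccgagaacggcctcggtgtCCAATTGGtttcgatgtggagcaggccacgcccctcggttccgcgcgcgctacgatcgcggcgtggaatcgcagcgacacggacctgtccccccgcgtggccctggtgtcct

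The CCAAT box and the GC box were the motifs that most members shared. The CCAAT box was found in a window of 24 of 29 members (82.8%), against 41.1% of all 27025 genes with a window and 43.1% of 8605 genes that also had a mean of at least 1 RPKM. Counted by window, 25 of 38 held a CCAAT box and 28 a GC box, against 37.4% and 35.7% of all 32851 windows. These window shares include genes of any level. The Mvk window held 5 CCAAT boxes and the Hmgcs1 window 4. Of the 3 CCAAT boxes in the Fasn window, 2 lie on opposite strands and overlap in the run CCAATTGG. Scap, Elovl6, Acaca, Acat2 and Fads2 had no CCAAT box in these windows. The E-box was present for 6 members (20.7%), namely Insig1, Scap, Hsd17b7, Sc5d, Dhcr7 and Elovl5, against 12.3% of genes with a mean of at least 1 RPKM. GC boxes were present for 23 members (79.3%) against 70.5% of genes with a mean of at least 1 RPKM. The sterol element core was found in 1 member (3.45%), Hmgcs1, beginning 137 bases before the start, against 1.44% of all genes. These are matches of letters in short windows, and nothing about binding was measured.

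Among the regulators, Insig1 was by far the most abundant. Insig1, the sterol-sensitive anchor of Scap, on chromosome 5 from 28397952 to 28405202 (mm9), was at 155.9, 151.36, 133.42 and 145.73 RPKM in replicates 1 to 4, or 147 ± 9.72 RPKM (SD, n = 4). It thus varied little, with a coefficient of variation of 6.63%, and its mean exceeded those of 96.7% of tested genes. Insig2, its paralog, was at 35.97, 53.1, 25.81 and 27.89 RPKM and was highest in replicate 2. Within a library Insig1 exceeded Insig2 in 4 of 4 libraries, by a ratio of 4.40 ± 1.11 (SD, n = 4), and the log2(RPKM + 1) difference was 2.06 ± 0.40. The exact two-sided sign-flip permutation test gave p = 0.13 and an adjusted p of 0.136 over the 12 gene pairs compared. With 4 libraries this p is the smallest that the test can give, so no pair could pass 0.05, and the number of libraries and the SD carry each comparison.

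Both SREBP genes were transcribed, Srebf2 above Srebf1. Srebf2, on chromosome 15 from 81977699 to 82035390 (mm9), was at 28.49, 26.21, 51.48 and 47.91 RPKM. Srebf1, on chromosome 11 from 60012591 to 60034106 (mm9), was at 22.17, 19.99, 32.88 and 31.53 RPKM. Each was higher in replicates 3 and 4 than in replicates 1 and 2, with no overlap. The ratio of Srebf2 to Srebf1 was 1.42 ± 0.143 (SD, n = 4) and above 1 in 4 of 4 libraries (exact sign-flip permutation p = 0.13). The table has 1 row for Srebf1, so its alternative first exons cannot be told apart. Scap, the escort protein, was at 39.34, 27.19, 57.46 and 55.41 RPKM and followed the same order of library pairs. All 5 regulators lay above 1 RPKM (limma, adjusted p from 2.29e-07 to 4.50e-06).

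The early steps from acetyl-CoA to farnesyl diphosphate were moderate, with 5 of 7 genes above 1 RPKM, 1 below and 1 listed at 0. Acat2, the cytosolic thiolase that makes acetoacetyl-CoA, was at 9.38, 12.8, 13.86 and 14.16 RPKM. Mvk, mevalonate kinase, on chromosome 5 from 114894315 to 114910599 (mm9), was at 10.83, 8.79, 22.68 and 23.71 RPKM. Mvd, the decarboxylase of this branch, was at 9.71, 11.16, 19.92 and 20.19 RPKM. For Mvk and Mvd the mean of replicates 3 and 4 exceeded that of replicates 1 and 2 by ratios of 2.36 and 1.92. Pmvk, phosphomevalonate kinase, at 21.3 ± 3.08 RPKM (SD, n = 4), and Fdps, farnesyl diphosphate synthase, at 22.6 ± 5.59 RPKM, showed the same order with smaller ratios of 1.27 and 1.54. All 5 genes were thus higher in both libraries without Y-linked reads.

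Hmgcs1 and Idi1 stood apart from the rest of this branch. Hmgcs1, the cytosolic HMG-CoA synthase, was listed at 0 in all 4 libraries. Its row lies on mm9 chromosome 13_random, a piece of chromosome 13 sequence with no assigned place, from 308620 to 326235. All 69 rows of the table on such unplaced sequence were listed at 0 in every library, against 16.7% of the other 20308 rows. The listed 0 therefore gives no level for Hmgcs1. Idi1, isopentenyl diphosphate isomerase, on chromosome 13 from 8884852 to 8891642 (mm9), was at 0.33, 0.51, 0.29 and 0.26 RPKM and below 1 RPKM (limma, adjusted p = 0.000121), from an estimated 22 to 34 reads per library. Of the windows of 36 bases in its transcript, 31.7% also occurred in transcripts of other genes, the largest share (21.7%) in Gm13502. The table also lists genes that nearly every cell uses near 0, with Gapdh at 0.2, 0, 0.04 and 0.03 RPKM and Ppia at 0.07, 0.08, 0.14 and 0.26 RPKM, and 83.7% and 56.65% of their windows were shared with other genes. Whether shared sequence lowered Idi1 was not tested. Fdps had 85.3% of its windows shared and Acat2 49.1%, the latter with Acat3, and both lay above 1 RPKM. The levels of Fdps and Acat2 are uncertain for the same reason.

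The later steps from squalene to cholesterol were all present, with 10 of 10 genes above 1 RPKM and a median of their means of 25.7 RPKM. Tm7sf2, a sterol reductase, was highest at 54, 47.19, 77.27 and 75.7 RPKM. Sqle, squalene epoxidase, a rate-controlling step after squalene, on chromosome 15 from 59146647 to 59162748 (mm9), was at 47.54, 45.73, 43.19 and 46.21 RPKM. Lss, lanosterol synthase, which acts next, was at 16.34, 17.13, 17.87 and 17.75 RPKM. Sqle and Lss were the members that varied least between libraries, with coefficients of variation of 3.99% and 4.06% among the 33 with a mean of at least 1 RPKM. Sqle exceeded Lss in 4 of 4 libraries by a ratio of 2.65 ± 0.204 (SD, n = 4; exact sign-flip permutation p = 0.13).

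Dhcr7, the reductase of the final step, was at 36.85, 44.11, 54.11 and 54.74 RPKM, and Ebp, a sterol isomerase, at 24.49, 33.44, 38.41 and 39.36 RPKM. Sc5d, the sterol desaturase that precedes Dhcr7, was lower in replicates 3 and 4, at 36.49, 42.93, 23.47 and 22.73 RPKM, a difference of -0.09 (log2) once centred on genes of like GC content. Cyp51, the lanosterol demethylase, was at 17.34, 22.48, 17.71 and 17.71 RPKM, with replicate 2 alone higher. Nsdhl, a sterol dehydrogenase, was at 13.6 ± 2.62 RPKM (SD, n = 4) and Hsd17b7, a keto reductase of the sterol ring, was lowest of the branch at 4.68 ± 0.697 RPKM. Tm7sf2 exceeded Lbr, the other gene with sterol reductase activity at this step, in 4 of 4 libraries, and the ratio of Lbr to Tm7sf2 in replicates 1 to 4 was 0.735, 0.806, 0.354 and 0.353.

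Fdft1, squalene synthase, opens the sterol branch and was at 14.19, 19.49, 22.22 and 23.91 RPKM. It was lower than Sqle in 4 of 4 libraries, with a ratio of 0.439 ± 0.103 (SD, n = 4; exact sign-flip permutation p = 0.13). In the deposited coordinates Fdft1 overlaps Ctsb, a lysosomal protease on the opposite strand, over 771 bases, and Ctsb was at 964 ± 335 RPKM. The strand setting of the counting is not given in the sources used here, so reads of the 2 genes in the overlap may not be separable and the level of Fdft1 is uncertain. Ctsb, like Fdft1, was lowest in replicate 1 (587.57 RPKM) and highest in replicate 4 (1289.26 RPKM). Its part in the Fdft1 values was not tested.

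Of the genes that handle finished sterol, Soat1, which esterifies cholesterol for storage, was at 14.44, 14.59, 12.07 and 13.45 RPKM. Its paralog Soat2 was at 0.86, 0.3, 0.2 and 0.24 RPKM and below 1 RPKM (limma, adjusted p = 0.00519). Soat1 exceeded Soat2 in 4 of 4 libraries, with a log2(RPKM + 1) difference of 3.41 ± 0.24 (SD, n = 4; exact sign-flip permutation p = 0.13). Stard4, a soluble sterol carrier, was at 12.15, 16.59, 6.6 and 5.21 RPKM, and so was lower in both libraries without Y-linked reads, with a ratio of 0.411.

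For fatty acid synthesis, the synthase was listed above both acetyl-CoA carboxylases in every library. Fasn, fatty acid synthase, on chromosome 11 from 120667272 to 120685861 (mm9), was at 19.1, 14.08, 34.04 and 31.97 RPKM. Acss2, which activates acetate, was at 26.17, 15.41, 26.41 and 26.78 RPKM, with replicate 2 alone low. Acaca, the cytosolic acetyl-CoA carboxylase, was at 3.84, 2.55, 1.85 and 1.72 RPKM and above 1 RPKM (limma, adjusted p = 0.0103). Acacb, the mitochondrial form known for restraining fatty acid oxidation, was at 0.76, 0.61, 0.42 and 0.45 RPKM and below 1 RPKM (limma, adjusted p = 0.00309). The ratio of Acaca to Acacb was 4.37 ± 0.517 (SD, n = 4) and above 1 in 4 of 4 libraries (exact sign-flip permutation p = 0.13). Of the 36-base windows of Acaca, 58.7% also occurred in Gm5182, so its level is uncertain, and no window of Acacb or Fasn was shared with another gene. In replicates 1 and 2 alone the call of Acacb was lost (limma, adjusted p = 0.0748).

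The desaturases held 2 of the 3 most abundant members. Fads1, which desaturates polyunsaturated fatty acids, on chromosome 19 from 10257378 to 10271362 (mm9), was at 136.55, 104.88, 152.13 and 157.27 RPKM. Fads2, its neighbour on chromosome 19 and the enzyme of the preceding step, was at 29.92, 21.32, 25.5 and 24.35 RPKM. The ratio of Fads2 to Fads1 was 0.186 ± 0.030 (SD, n = 4) and below 1 in 4 of 4 libraries (exact sign-flip permutation p = 0.13). Scd2, a stearoyl-CoA desaturase, on chromosome 19 from 44368166 to 44381352 (mm9), was at 126.64, 116.09, 130.92 and 131.27 RPKM. Scd1, the form that predominates in liver and fat, was at 3.48, 1.61, 4.45 and 3.81 RPKM. Scd2 was higher in 4 of 4 libraries at a log2(RPKM + 1) difference of 4.92 ± 0.39 (SD, n = 4; exact sign-flip permutation p = 0.13). This mean was the largest of the 12 pairs on that scale, but not without replicate 2, where Elovl1 minus Elovl6 and Scd2 minus Scd1 both came to 4.74. The ratio lay between 29.4 in replicate 3 and 72.1 in replicate 2. Of their windows, 7.23% for Scd1 and 5.94% for Scd2 occurred in other genes, mostly Scd3. The further paralogs Scd3, at 0.75, 0.28, 0.21 and 0.29 RPKM, and Scd4, at 0.21, 0.29, 0.12 and 0.03 RPKM, were called below 1 RPKM (limma, adjusted p = 0.00219 and 3.56e-05).

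**Figure D2:**
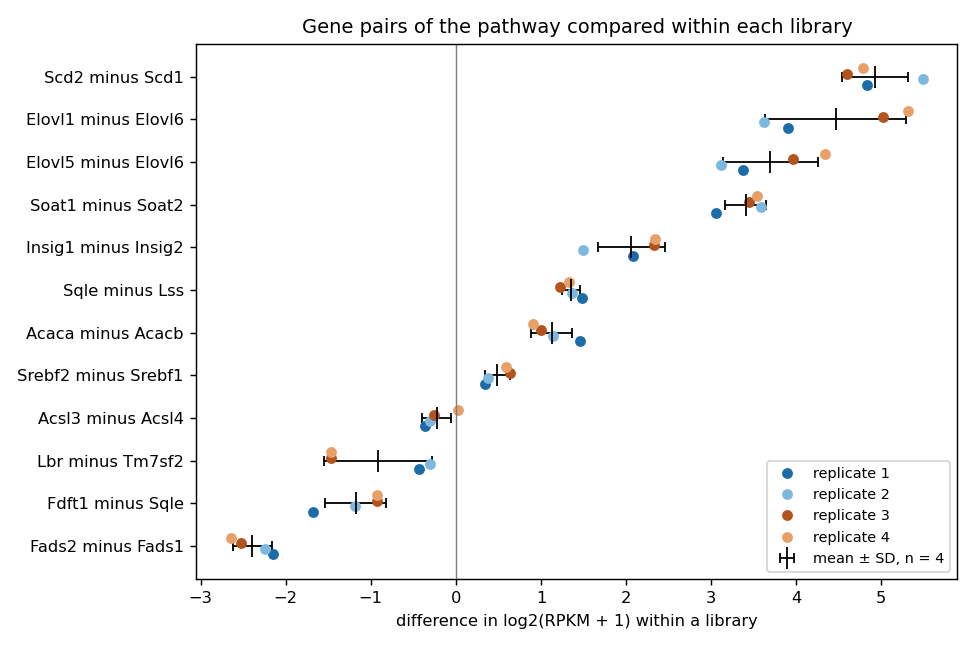
Difference in log2(RPKM + 1) between the genes of 12 pairs within each library (coloured points), with mean ± SD over 4 libraries (black). The mean of Scd2 minus Scd1 lies farthest right at 4.92, that of Fads2 minus Fads1 lies farthest left at -2.39, and 11 pairs have all 4 libraries on 1 side of 0.

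The elongases likewise included abundant and scarce members. Elovl1, which builds very long saturated chains, was at 75.03, 67.58, 93.78 and 92.17 RPKM, and Elovl5, which lengthens polyunsaturated chains, at 51.56, 47.13, 44.5 and 46.47 RPKM. Elovl6, which lengthens palmitate, was at 4.08, 4.57, 1.92 and 1.35 RPKM. Both exceeded Elovl6 in 4 of 4 libraries, with log2(RPKM + 1) differences of 4.46 ± 0.83 for Elovl1 and 3.70 ± 0.56 for Elovl5 (SD, n = 4; exact sign-flip permutation p = 0.13 for each). The ratio of Elovl1 to Elovl6 was 18.4, 14.8, 48.8 and 68.3 in replicates 1 to 4. That of Elovl5 to Elovl6 was 12.6, 10.3, 23.2 and 34.4, so both ratios were higher in replicates 3 and 4. Elovl6 lay above 1 RPKM (limma, adjusted p = 0.0191), but not without replicate 1 (adjusted p = 0.0653) or without replicate 2 (adjusted p = 0.0634). Acsl3, which activates long-chain fatty acids at the endoplasmic reticulum and on lipid droplets, was at 13.56, 17.12, 4.58 and 4.39 RPKM. Acsl4, a relative that prefers arachidonate, divided in the same way, at 17.72, 21.42, 5.67 and 4.31 RPKM. Acsl3 was lower than Acsl4 in 3 of 4 libraries with a log2(RPKM + 1) difference of -0.23 ± 0.17 (SD, n = 4, exact sign-flip permutation p = 0.25). In the deposited coordinates Acsl3 shares 9777 bases with Utp14b (1.45 RPKM on average) on the same strand, and Srebf1 with Rai1, Elovl1 with Cdc20 and Tm7sf2 with 1110014N23Rik share 107 bases or fewer.

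Members varied between libraries about as much as other genes. Most members, like most genes with a mean of at least 1 RPKM, followed the division into library pairs. Over the 33 members with a mean of at least 1 RPKM, the median SD of log2(RPKM + 1) was 0.32, and it was 0.32 over all 11967 genes of that level. In 20 of these members both replicates 3 and 4 lay above both replicates 1 and 2, against 29.7% of all such genes. In 9 members both lay below, against 41.2% of all genes, and 4 members (Sqle, Cyp51, Hsd17b7 and Fads2) overlapped. With upper quartile scaling the higher and lower members numbered 21 and 6, and with libraries rescaled without their 20 highest genes 16 and 11. The shares of all genes under these scalings are given at the end of the text. The 20 higher members comprised 3 regulators, 5 mevalonate genes, 6 genes of the sterol branch, 2 of fatty acid synthesis, 3 desaturases and 1 elongase. The 9 lower members were Insig1, Insig2, Sc5d, Stard4, Soat1, Acaca, Elovl5, Elovl6 and Acsl3. The ratio of the mean of replicates 3 and 4 to that of replicates 1 and 2 ran from 0.292 for Acsl3 to 2.36 for Mvk. This division follows the Y-linked reads and not a label of the study, no test was made on it, and cells of different origin, culture and library preparation cannot be told apart.

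The division also followed base composition. Across 11842 genes with a mean of at least 1 RPKM, the difference between the library pairs correlated with the GC content of the transcript (Spearman 0.571) and with its length (Spearman -0.251), and over the 33 members the correlation with GC content was 0.816. Genes and members in these correlations share the same 4 libraries. The 20 higher members had a GC content of 45.8% to 59.6% with a median of 52.4%, and the 9 lower ones 42.9% to 49.2% with a median of 44.8%. Against the median of genes in the same of 20 GC bins, 19 of the 20 higher members still lay higher, all but Lss, and 6 of the 9 lower members still lay lower. The shares of all genes that kept their direction are not given here, so these counts do not set the members apart. Insig1, Soat1 and Elovl5 changed sign, and the log2 difference of Sc5d went from -0.75 to -0.09. After this centring the log2 difference was largest for Scd1 (0.90) and Mvk (0.89), followed by Nsdhl (0.78), Hsd17b7 (0.73) and Fasn (0.71), and was lowest at -1.14 for Acsl3, -0.60 for Stard4 and -0.48 for Elovl6. The number of members with a higher mean in replicates 3 and 4 was 21 of 33 as measured, against 44.6% of all genes, and 25 of 33 after centring, against 50.0% of all genes, a share that the centring itself sets.

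**Figure D3:**
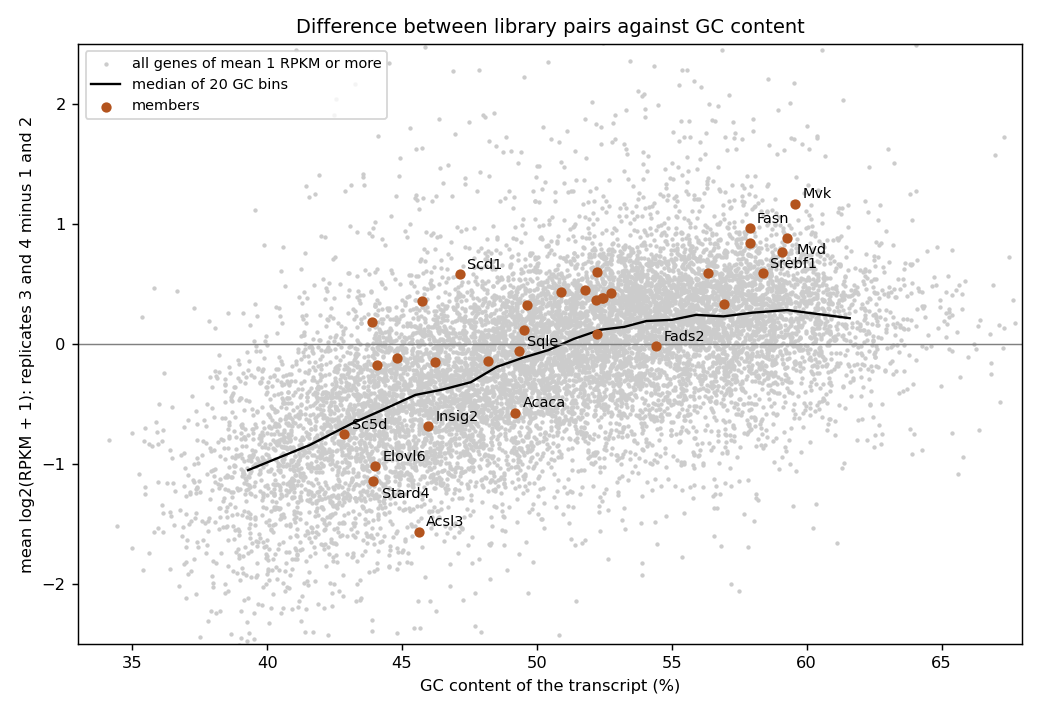
Difference in mean log2(RPKM + 1) between replicates 3 and 4 and replicates 1 and 2 (vertical axis) against GC content of the transcript in percent, for all genes with a mean of at least 1 RPKM (grey; 54 of 11842 lie outside the axes), the median of 20 GC bins (black line) and the 33 members (orange). Mvk, Fasn and Mvd lie above the line at high GC content, and Acsl3, Stard4 and Elovl6 below it at low GC content.

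Other genes of the pathways were mostly present as well. Of all tested genes, 65.0% lay above 1 RPKM and 26.1% below. Of 13 further genes of sterol synthesis and its control, 12 lay above 1 RPKM and 1 below, led by Sc4mol, a sterol oxidase, at 77.0 ± 18.2 RPKM (SD, n = 4). Erlin2, a membrane protein of the endoplasmic reticulum, was at 64.9 ± 4.45 RPKM and Mbtps1, the protease that first cuts SREBP, at 67.6 ± 10.9 RPKM. The lowest were Stard5, a sterol carrier, at 7.29 ± 0.978 RPKM and Soat2, the one gene below. Of 23 further genes of fatty acid synthesis and its control, 18 lay above and 4 below. Acly, which makes cytosolic acetyl-CoA from citrate and so feeds both pathways, was higher than any member in every library, at 245.01, 234.87, 333.64 and 338.85 RPKM. Mid1ip1, an activator of acetyl-CoA carboxylase, stood at 76.3 ± 11.3 RPKM and Slc25a1, the mitochondrial citrate carrier, at 71.0 ± 8.01 RPKM. Thrsp, a lipogenic protein of liver and fat, was at 0.08, 0, 0.32 and 0.21 RPKM, and Elovl3 was at 0.16, 0, 0.04 and 0.07 RPKM.

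Of 11 genes of fatty acid oxidation 10 lay above 1 RPKM and none below, against 65.0% and 26.1% of all tested genes. The same shares stand beside the lists that follow. Their median log2(RPKM + 1) within a library, returned to RPKM, was 54.4 to 69.6 RPKM. Acadl, a dehydrogenase of oxidation, was at 95.7 ± 23.7 RPKM (SD, n = 4), Cpt2 at 87.7 ± 9.38 RPKM and Acadvl at 87.3 ± 15.7 RPKM, with Hadhb at 7.66 ± 1.45 RPKM. Ppara, a regulator of oxidation, was at 0.935 ± 0.448 RPKM and called neither way. Of 11 genes of triglyceride synthesis, droplets and lipolysis, 10 lay above 1 RPKM and 1 below. Plin3 and Plin2, which coat lipid droplets, were at 115 ± 11.8 and 44.5 ± 15.2 RPKM and Agpat2 at 34.37 to 46.82 RPKM, and the lowest were Lipe at 5.86 ± 0.483 RPKM and Mgll at 0.253 ± 0.128 RPKM. Of 9 genes for sterol release, uptake and efflux, 7 lay above and none below. Npc2 was at 132 ± 26.9 RPKM, Lipa at 37.2 ± 6.11 RPKM and Scarb1 at 29.4 ± 3.58 RPKM, while Mylip at 1.67 ± 1.17 RPKM and Abca1, the cholesterol exporter, at 0.773 ± 0.395 RPKM were called neither way. Of 8 genes of bile acid and steroid synthesis, 2 lay above 1 RPKM, Hsd3b7 at 25.1 ± 5.86 RPKM and Star at 2.74 ± 0.398 RPKM, and 2 below. Cyp27a1 was at 6.67, 0.03, 1.96 and 1.78 RPKM, Cyp7b1 was at 0.06 RPKM in replicate 1 and listed at 0 in the others, and Cyp7a1, the rate-limiting enzyme of bile acid synthesis, was listed at 0 in all 4 libraries.

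**Figure D4:**
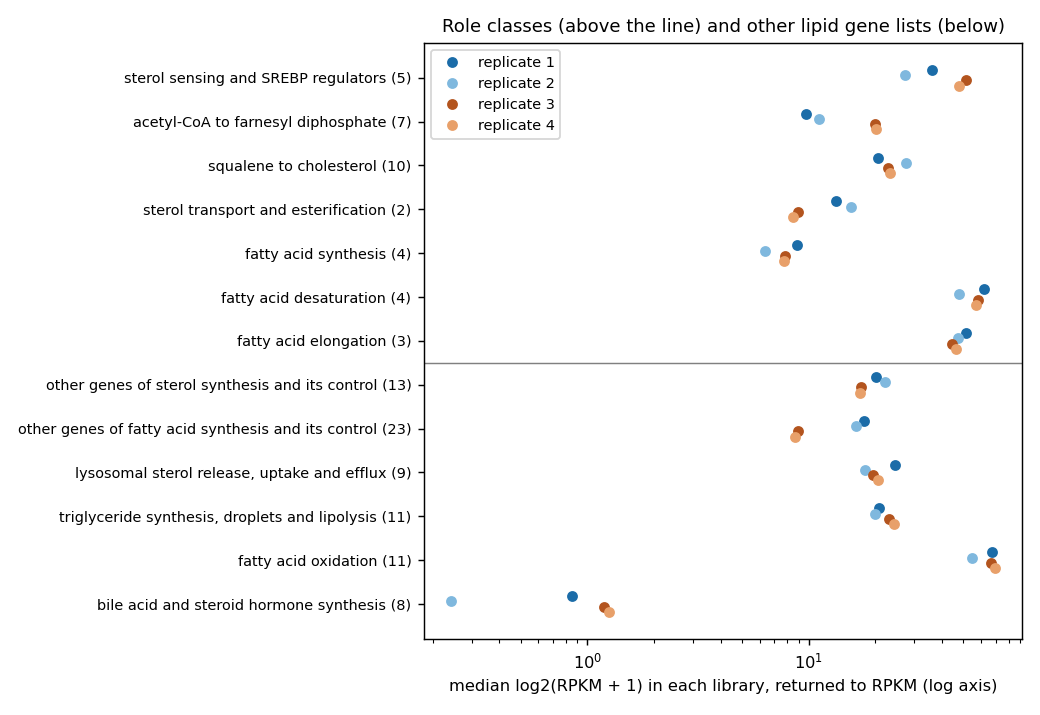
Median log2(RPKM + 1), returned to RPKM (log axis), of 7 role classes of members and of 6 further lipid gene lists in each of the 4 libraries, with the number of genes in brackets. The oxidation list lies between 54.4 and 69.6 RPKM and the mevalonate class is higher in replicates 3 and 4. Hmgcs1 is counted at 0 in the mevalonate class.

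Markers of adipocytes and hepatocytes, cells rich in these enzymes, were mostly below 1 RPKM or listed at 0. Among all tested genes, 65.0% lay above 1 RPKM and 26.1% below. In bulk libraries, fewer cells of a type and less RNA per cell cannot be told apart. Of 8 adipocyte markers 1 lay above 1 RPKM, Pparg at 8.83 ± 4.99 RPKM (SD, n = 4), and 6 below. Cidec was at 0.335 ± 0.326 RPKM and Lep was listed at 0, and the list's summed level was 4.82 to 16.1 RPKM, higher in replicates 1 and 2. Of 8 hepatocyte markers 2 lay above, Apoa2 at 23.9 ± 10.0 RPKM and Alb at 22.8 ± 14.3 RPKM, 3 lay below, and Serpina1a, Fgb and Cyp3a11 were listed at 0. Their summed level over replicates 1 to 4 was 16.3, 40.6, 62.2 and 68.3 RPKM, nearly all of it Alb and Apoa2. This sum was higher in replicates 3 and 4 than in replicates 1 and 2. The same order held for 20 of 33 members and 29.7% of all genes with a mean of at least 1 RPKM. The part of hepatocyte RNA in the members' values was not tested. Of 8 macrophage markers 4 lay above 1 RPKM and 3 below, with Cd68 at 138 ± 19.6 RPKM, C1qa at 15.0 ± 9.82 RPKM and Emr1 listed at 0, and a summed level of 159 to 194 RPKM. Of 7 fibroblast markers none lay above and 4 lay below, with Pdgfra at 1.49 ± 1.09 RPKM, Col1a2 at 0.713 ± 0.142 RPKM and Lum listed at 0, and a summed level of 2.11 to 5.17 RPKM. The insulin-cell markers, 6 of 6 above, summed to 4035, 9355, 10139 and 11250 RPKM in replicates 1 to 4. The gallbladder epithelium markers, 6 of 7 above, to 1044, 1243, 1540 and 1570 RPKM. The part of these shifts in the members' values was not tested.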

How the data were processed

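The authors deposited 1 table of RPKM values, rounded to 2 decimals, with 1 RefSeq transcript per gene symbol. Per the labels' protocols, TruSeq v2 libraries were made from RNA of sorted cells. Per the submitters' processing notes, CASAVA 1.8.2, Bowtie and mm9 were used. How reads were counted, by strand and at several matches, is not given in the sources used here. 6 further per-sample columns match no sample of this series and were not used. Starts in the table count from 0 (698 of 979 short olfactory genes then have their transcript's length) and were raised by 1.

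Depth is the value within a fixed search range that brought low RPKM (under 0.3) of 993 olfactory receptor genes closest to whole reads. From 14 to 32 values per library were used. Levels were tested with limma 3.58.1 (R 4.3.3, mean-variance trend), gene pairs with an exact sign-flip permutation test. limma's test was checked on simulated data with independent libraries, a setting that does not cover the likeness of replicates 3 and 4. A pseudocount of 1 RPKM compresses differences of low genes. Transcript length, GC content and shared windows come from GENCODE vM21 (another build, matched by RefSeq identifier for 98.1% of genes). Members and lists were chosen with earlier results of these data known. The text names every member, the 3 highest and 2 lowest genes of each context list, the 2 highest and the lowest of each marker list, genes of the pairs and genes that overlap a member. The use of replicates 1 and 2 or 3 and 4 alone, the centring on GC content, the Y-linked genes, the genes listed near 0, Scd3, Scd4, the GC-centred values named and the unplaced rows were chosen after seeing the data. Alternatives were another pseudocount, 2 scalings, a filter, 10 RPKM as reference, no trend, and leaving out each replicate. Some genes of one context list and the pairs that held them are not reported here and are not in the counts.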

Additional observations from a re-analysis of the deposited data

Results flagged for a closer look

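In 2 of the 54 sets of 4 values examined, 1 library lay far from the other 3, by a gap-to-range ratio above Dixon's critical value. Chance alone marks about 1 set in 20. Cyp51 was high in replicate 2 (22.48 RPKM against 17.34 to 17.71, ratio 0.928). Acss2 was low in replicate 2 (15.41 RPKM against 26.17 to 26.78, ratio 0.946).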

How the results depend on the processing

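No paired analysis was possible because the series has 1 group. With 10 RPKM as reference, 6068 genes lay above and 8155 below, and 6 members below. The log2 estimates of 6 members then had the other sign, -0.96 for Hsd17b7, -0.11 for Stard4, -1.70 for Acaca, -1.39 for Scd1, -1.56 for Elovl6 and -0.22 for Acsl3. This follows from the higher reference. With genes of at least 0.1 RPKM in 3 libraries, 1391 genes lay below 1 RPKM, against 4423, since fewer low genes were tested. In replicates 1 and 2 alone, a choice made after seeing the data, 1 member lay below 1 RPKM and Scd1 lost its call (limma, adjusted p = 0.0695). In replicates 3 and 4 alone, 9 members had an SD above the median of all genes, against 16. A pseudocount of 0.1 RPKM put the median of the fatty acid synthesis class at 2.85 on the log2 scale, against 3.11. With upper quartile scaling 21 members lay higher and 6 lower in replicates 3 and 4, against 35.2% and 36.5% of all genes. With each library rescaled without its 20 highest genes these were 16 and 11 members, against 25.7% and 44.0%. None of the 12 pair differences changed direction under any alternative run. Depth limits Idi1 and Acacb most, with 22 to 34 and 88 to 156 estimated reads per library.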
